A study of Mus musculus with 8 samples.

Results

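Neurotrophins are small secreted proteins that act on neurons and their precursors through Trk receptor tyrosine kinases and through p75NTR, a receptor of the tumor necrosis factor receptor family. *Ntrk2* (TrkB, receptor of BDNF and NT-4/5), *Ntrk3* (TrkC, receptor of NT-3), *Ngfr* (p75NTR), *Sort1* (sortilin, which binds proneurotrophins together with p75NTR and also sorts proteins within the cell), *Bdnf* and *Ntf3* (NT-3) were chosen by name, as 6 of the 29092 genes in the mRNA count table. All 6 had a row and all 6 passed the filter on low counts, by which 1 population or both needed a mean count of 3 or more and reads in 3 or more of its 4 libraries. In the fetal bowel, p75NTR is a surface protein by which enteric neural crest-derived cells (ENCDCs) are commonly isolated, and in mice NT-3 acting on TrkC is known to support part of the enteric neurons.

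Cells were dissociated from the bowel of E13.5 *Ednrb-EGFP* mouse embryos and sorted into GFP+ ENCDCs and GFP- gut cells. The embryos came from matings of heterozygous *Ednrb-EGFP* mice with wild-type C57BL/6J mice, and bowels with GFP were picked under a microscope. All cells of both populations thus came from embryos with the same transgene. The labels give wild type as the genotype for both. The labels name no treatment. The transgene reports *Ednrb*, an endothelin receptor gene, so the GFP- cells hold every bowel cell that did not pass the GFP+ gate, a mixture of mesenchyme, muscle, epithelium, vessels and blood. Each population had 4 libraries, some made from pooled RNA of more than 1 sample, so p-values measure the spread between these libraries.

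The counts had been brought to one depth before deposit, with totals of 13250893 to 13264785 in ENCDC libraries and 13257119 to 13267220 in gut libraries. The labels were checked against marker genes. All 8 enteric crest markers were higher in ENCDCs, and their summed normalized count in gut libraries was 6.54% to 7.32% of the ENCDC mean. *Tfap2b* was at 0 in all 4 gut libraries, but it had only 5, 15, 0 and 9 counts in ENCDC replicates 1 to 4. Its 0 in gut libraries is thus too near the floor to tell how many ENCDCs they held. All 8 mesenchyme and all 8 smooth muscle markers were lower in ENCDCs, with summed levels at 1.70% to 12.0% and 2.16% to 16.1% of the gut mean. No mesenchyme or muscle marker was at 0 in all ENCDC libraries. ENCDC replicate 3 stood apart, with the highest mesenchyme, smooth muscle, pericyte, epithelium, mesothelium and macrophage marker sums among ENCDC libraries. Endothelial markers were mixed, with *Kdr* higher in ENCDCs and 4 of 7 markers lower.

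The study centred on miRNAs, and the letters of 2 of its miRNAs are shown because their seed matches lie in the 3' UTRs of several of these genes. The mature mouse sequences are from RefSeq (GRCm38.p6), 5' to 3', with the seed, bases 2 to 8, in capitals. The 2 seeds differ.
miR-9-5p: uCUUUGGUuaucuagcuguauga
miR-27b-3p: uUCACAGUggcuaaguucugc
The sites below are in mm10 in the longest annotated 3' UTR of each gene, written on the gene's strand with the match to the seed in capitals. They are given for the 2 genes that were higher in ENCDCs and for both Trk receptor genes.
*Ngfr*, miR-27b, chr11:95570417-95570441, minus strand: atggactccacACTGTGAactggag
*Sort1*, miR-9, chr3:108360594-108360618, plus strand: tttggaacaaaACCAAAGtttaaga
*Ntrk2*, miR-27b, chr13:59133070-59133094, plus strand: gcaagtgaaacACTGTGAatctcac
*Ntrk2*, miR-9, chr13:59130812-59130836, plus strand: tacaggattacACCAAAGggctgta
*Ntrk3*, miR-9, chr7:78177879-78177903, minus strand: gccctgtaaacACCAAAGtcttgta
*Ntrk3*, miR-9, chr7:78176470-78176494, minus strand: ttaatggtatcACCAAAGgtcattt
A match is a description of letters and not a measured site. The miR-27b match, ACTGTGA on the transcript strand only, was in 16% of 21039 longest 3' UTRs, and the miR-9 match, ACCAAAG, in 12.2%. A longer UTR has more room for a match, and the 3' UTR of *Ntrk3* has 16600 bases, against 1985 in *Ngfr* and 314 in *Ntf3*, which had neither match. Further miR-27b matches in *Ntrk3* and *Bdnf* are not shown. Matches thus lay both in genes that were higher and in genes that were lower in ENCDCs. The study's lists of predicted targets were limited to mRNAs present in ENCDCs, with 1142 genes for miR-9 and 1101 for miR-27b. They hold *Ngfr* for miR-27b, and *Sort1* and *Ntrk3* for miR-9. They do not hold *Ntrk2* or *Bdnf* for either miRNA, so the matches in genes called lower were outside those lists. A place on a list thus depends in part on the level in ENCDCs.

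The *Ngfr* and *Ntrk2* genes had the largest difference in each direction among these genes, and the 200 bases that end 51 bases before their RefSeq start sites are shown for that reason, on the strand of the gene, with GGGCGG (a GC box, searched on both strands) in capitals.
*Ngfr*, chr11:95587749-95587948, minus strand: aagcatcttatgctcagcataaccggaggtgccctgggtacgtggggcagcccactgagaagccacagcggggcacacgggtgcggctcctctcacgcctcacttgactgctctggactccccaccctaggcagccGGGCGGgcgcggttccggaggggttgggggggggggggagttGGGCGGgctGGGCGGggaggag
*Ntrk2*, chr13:58806319-58806518, plus strand: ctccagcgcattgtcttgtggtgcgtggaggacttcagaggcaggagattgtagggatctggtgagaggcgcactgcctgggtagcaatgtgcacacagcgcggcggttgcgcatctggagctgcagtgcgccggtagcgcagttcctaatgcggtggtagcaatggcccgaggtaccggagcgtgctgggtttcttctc
The *Ngfr* window had 70.0% G and C and 3 GC boxes, and the *Ntrk2* window had 61.0% G and C and no GC box. Of 32851 windows of this length, 24.6% held a GC box and the median G and C content was 51.5%.

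The receptors were divided between the populations. *Ngfr* and *Sort1* were higher in ENCDCs, *Ntrk2* was lower, and *Ntrk3* did not pass the test. Both ligand genes, *Bdnf* and *Ntf3*, were lower in ENCDCs. Thus 2 of the 6 genes were higher and 3 were lower by edgeR's quasi-likelihood test at an adjusted p under 0.05. Among all 18866 genes tested, 37.9% were called, 17.0% as higher in ENCDCs and 20.9% as lower. The deposited counts of the populations did not overlap for any of the 6 genes, *Ntrk3* by a margin of 1 count, and for 37.3% of all genes tested. In bulk RNA, fewer cells of a type and less RNA per cell cannot be told apart.

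**Figure D1:**
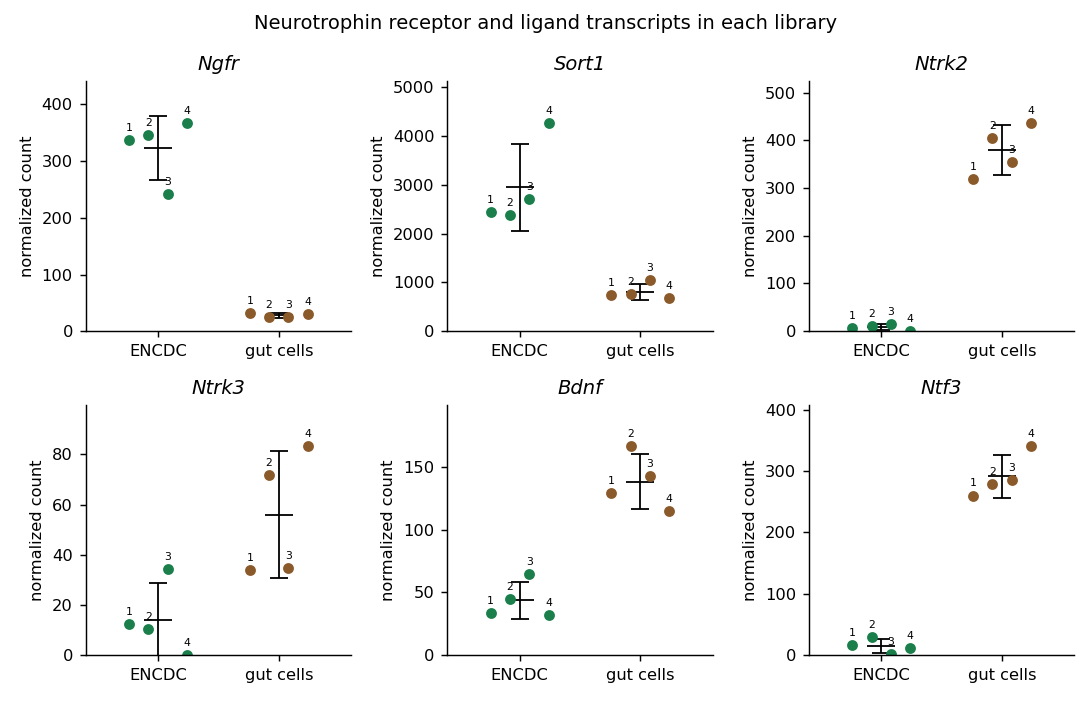
Normalized count (deposited count scaled by TMM factor, linear axes from 0) of each gene in each library, with ENCDCs at left and gut cells at right. Points are libraries with their replicate number, and bars are mean ± SD (n = 4 each, cut at 0). *Ngfr* and *Sort1* lie higher in all 4 ENCDC libraries than in any gut library, *Ntrk2*, *Bdnf* and *Ntf3* lie lower, and *Ntrk3* meets the gut range through ENCDC replicate 3.

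*Ngfr*, the gene of p75NTR, has 1 annotated transcript and lies on the minus strand at chr11:95568818-95587735 (mm10). Its deposited counts were 332, 340, 241 and 356 in ENCDC replicates 1 to 4, against 33, 25, 25 and 30 in gut replicates 1 to 4. Every ENCDC library was far above every gut library, and ENCDC replicate 3 was the lowest ENCDC library. The normalized count averaged 323.2 ± 55.6 in ENCDCs, against 27.8 ± 3.73 in gut cells (SD, n = 4 each). The log2 fold change was 3.53 (SE 0.25, edgeR adjusted p = 1.19e-06), or 11.6-fold. In gut libraries *Ngfr* was at 7.62% to 9.92% of its ENCDC mean, while *Ret*, the GDNF receptor of enteric precursors, stood at 0.731% to 1.33% and the crest factor *Sox10* at 0.708% to 2.37%. *Ednrb*, whose regulatory sequence drives the sorted GFP, stood at 6.24% to 6.93%. The cell types that gave the *Ngfr* counts in GFP- libraries were not tested.

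*Sort1* lies on the plus strand at chr3:108284082-108361511, and 338 of its exon bases overlap an antisense gene, *Gm12523*, that had 0 to 1 counts. Its deposited counts were 2414, 2337, 2700 and 4135 in ENCDC replicates 1 to 4, against 754, 775, 1056 and 679 in gut replicates 1 to 4. The populations did not overlap, and ENCDC replicate 4 was well above the other ENCDC libraries. The normalized count averaged 2953 ± 891 in ENCDCs, against 802.6 ± 164 in gut cells (SD, n = 4 each). The log2 fold change was 1.88 (SE 0.21, edgeR adjusted p = 3.22e-05), or 3.68-fold. Without ENCDC replicate 4 the log2 fold change was 1.65 (edgeR adjusted p = 2.1e-05). *Sort1* thus differed less between the populations than *Ngfr*, with gut libraries at 22.8% to 35.3% of the ENCDC mean. The *Sort1* count was 6.87 to 11.6 times the *Ngfr* count in ENCDC libraries and 22.6 to 42.2 times in gut libraries, without correction for transcript length.

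*Ntrk2* lies on the plus strand at chr13:58806569-59133970, with 7 protein-coding transcripts. Some Trk isoforms lack the kinase domain, and gene counts do not separate them from full-length receptors. Its deposited counts were 7, 11, 16 and 1 in ENCDC replicates 1 to 4, against 329, 412, 359 and 441 in gut replicates 1 to 4. TrkB transcripts were thus scarce in every ENCDC library, and scarcest in replicate 4. The normalized count averaged 8.85 ± 6.37 in ENCDCs, against 379.1 ± 52.2 in gut cells (SD, n = 4 each). The log2 fold change was -5.40 (SE 0.47, edgeR adjusted p = 5.58e-06), which is 42.1-fold higher in gut cells. The *Ntrk2* level in ENCDC libraries was 0.273% to 4.24% of the gut mean, which lies at or below the mesenchyme marker sum in ENCDC replicates 1, 3 and 4. *Ntrk2* was 2.95% and the mesenchyme sum 1.70% in ENCDC replicate 2. ENCDC replicate 3 was highest for both, and the part of sorted-in gut cells in these few counts was not tested. Without that library the log2 fold change was -5.85 (edgeR adjusted p = 7.52e-07). The count of *Ntrk2* was 0.00281 to 0.0664 times that of *Ngfr* in ENCDC libraries and 9.97 to 16.5 times in gut libraries.

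*Ntrk3* lies on the minus strand at chr7:78175959-78738012, with 6 protein-coding transcripts. Its deposited counts were 12, 10, 34 and 0 in ENCDC replicates 1 to 4, against 35, 73, 35 and 84 in gut replicates 1 to 4. The 0 in ENCDC replicate 4 allows up to 3 counts at this depth. The highest ENCDC library lay 1 count below the lowest gut library, and after normalization it lay within the gut range, at 34.1 against a gut minimum of 34.0. The normalized count averaged 14.1 ± 14.4 in ENCDCs, against 55.9 ± 25.4 in gut cells (SD, n = 4 each). The log2 fold change of -1.97 (SE 0.88) did not pass the test (edgeR adjusted p = 0.101). Replicate 3 held 34 of the 56 ENCDC counts and was also the library with the most mesenchyme and muscle marker signal. Without it the log2 fold change was -2.88 (edgeR adjusted p = 0.017), and with all 8 libraries voom and limma also called it (-2.88, adjusted p = 0.0288). The call thus turns on that library and on the tool.

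**Figure D2:**
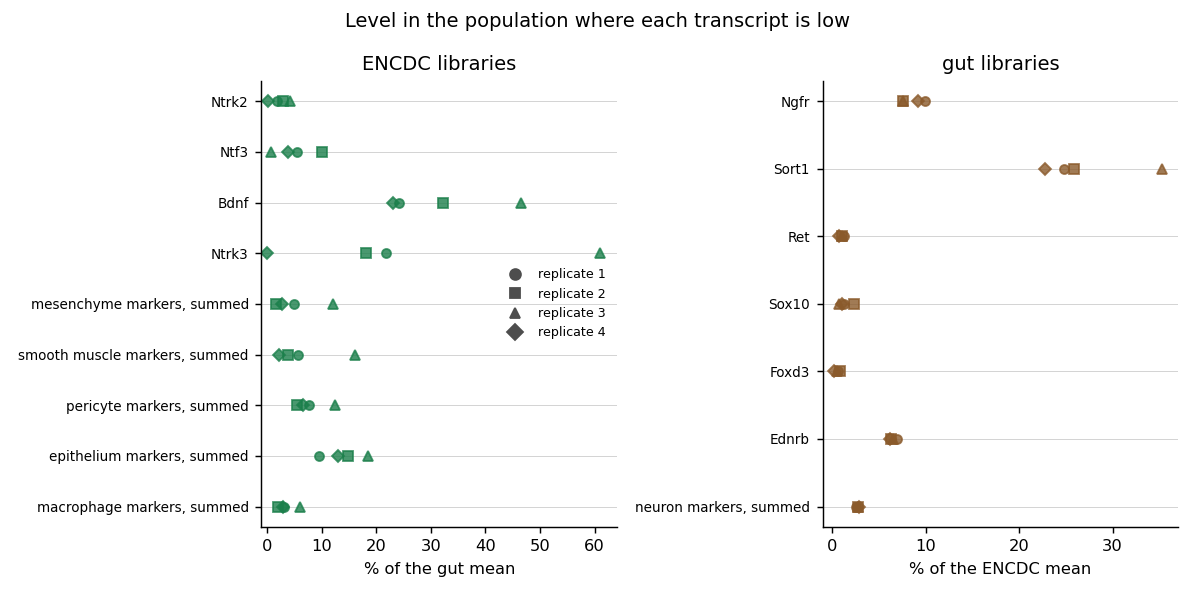
Level of each transcript or marker sum in the population where it is low, as a percent of the mean of the other population. The left panel has the 4 ENCDC libraries (percent of the gut mean) and the right panel the 4 gut libraries (percent of the ENCDC mean), with a symbol for each replicate. *Bdnf* and *Ntrk3* reach 46.4% and 61.1% in ENCDC replicate 3, where the mesenchyme sum is 12.0%, whereas *Ntf3* is lowest in that library at 0.689%.

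*Ntf3*, the gene of NT-3, lies on the minus strand at chr6:126101412-126166910. Its deposited counts were 16, 29, 2 and 11 in ENCDC replicates 1 to 4, against 268, 284, 289 and 344 in gut replicates 1 to 4. The populations were widely separated, and the gut libraries lay close together. The normalized count averaged 14.8 ± 11.5 in ENCDCs, against 291.5 ± 34.5 in gut cells (SD, n = 4 each). The log2 fold change was -4.29 (SE 0.52, edgeR adjusted p = 7.01e-05), which is 19.6-fold higher in gut cells. Unlike *Ntrk2*, *Ntf3* was lowest in ENCDC replicate 3, the library with the highest mesenchyme sum, and highest in replicate 2, the library with the lowest. Without ENCDC replicate 3 the log2 fold change was -3.93 (edgeR adjusted p = 2.61e-06).

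*Bdnf* lies on the plus strand at chr2:109674700-109727007, with 11 annotated transcripts from several start sites, and 896 of its exon bases overlap an antisense gene, *Gm45346*, that has no row under that name. The libraries do not keep the strand, so reads of the pair cannot be told apart. The deposited counts were 33, 44, 64 and 31 in ENCDC replicates 1 to 4, against 133, 169, 145 and 116 in gut replicates 1 to 4. The populations did not overlap, but the gap was smaller than for *Ntf3*. The normalized count averaged 43.6 ± 14.9 in ENCDCs, against 138.4 ± 22.0 in gut cells (SD, n = 4 each). The log2 fold change was -1.66 (SE 0.33, edgeR adjusted p = 0.00236), which is 3.17-fold higher in gut cells. Against a null of a 2-fold change the call was lost (edgeR adjusted p = 0.0557). ENCDC libraries were at 23.1% to 46.4% of the gut mean, above the mesenchyme sum in each of them. The count of *Bdnf* was 1.52 to 32.0 times that of *Ntf3* in ENCDC libraries, the highest ratio resting on 2 *Ntf3* counts in replicate 3, and 0.337 to 0.595 times in gut libraries. The *Bdnf* count was thus above the *Ntf3* count in every ENCDC library and below it in every gut library, without correction for transcript length.

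Levels per kilobase allow the genes to be compared with each other. The normalized count was divided by the length of all exons of a gene. In ENCDCs *Sort1* was at 390.1 ± 118 per kilobase and *Ngfr* at 93.8 ± 16.1, while *Ntrk2* was at 0.459 ± 0.33, *Ntrk3* at 0.468 ± 0.476, *Ntf3* at 8.62 ± 6.68 and *Bdnf* at 7.02 ± 2.39 (SD, n = 4). In gut cells *Ntf3* was highest at 170.1 ± 20.1 per kilobase, followed by *Sort1* at 106.0 ± 21.7, *Bdnf* at 22.3 ± 3.53, *Ntrk2* at 19.7 ± 2.71, *Ngfr* at 8.06 ± 1.08 and *Ntrk3* at 1.85 ± 0.842. *Bdnf* and *Ntrk2* overlapped in gut libraries on this scale, as did *Ntf3* and *Bdnf*, and *Ntrk2* and *Ntrk3*, in ENCDCs. With the median length of protein-coding transcripts, *Ntrk2* in gut cells was at 124.3 ± 17.1 per kilobase and *Sort1* at 117.7 ± 24.1, and these overlapped. *Ntrk3* in gut cells was then at 20.5 ± 9.32 per kilobase, above *Ngfr* at 8.06 ± 1.08 with no overlap, and *Ntrk2* was above *Bdnf* at 35.4 ± 5.62. The order of *Ntrk2* and *Ntrk3* among these genes in gut cells therefore depends on the length used.

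**Figure D3:**
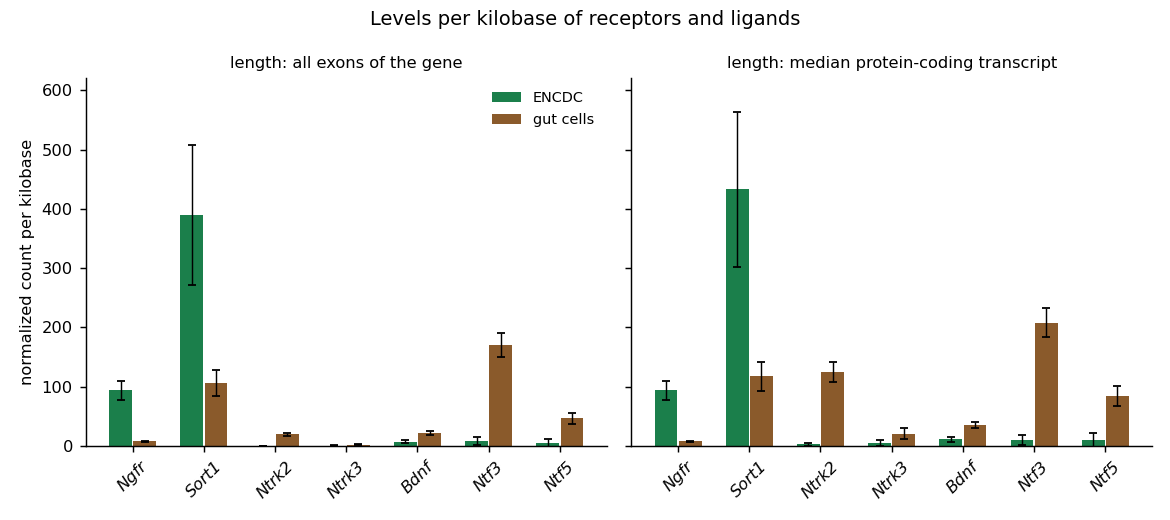
Normalized count per kilobase (linear axes from 0) of receptor and ligand genes in ENCDCs (left bar of each pair) and gut cells (right bar), with the length of all exons in the left panel and of the median protein-coding transcript in the right panel. Bars are means and lines are SD (n = 4 each). *Sort1* is the highest of the receptors shown in ENCDCs and *Ntf3* the highest of the ligands shown in gut cells on both lengths, while *Ntrk2* in gut cells moves from 19.7 to 124.3 with the length.

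Other ligands and receptors of the family were looked at in a list of 6 genes, of which 1 was higher, 1 was lower and 4 were not called, with a median log2 fold change of -0.32, against -0.04 over all tested genes. Over all tested genes, 17.0% were called higher and 20.9% lower. *Ntf5*, the gene of NT-4/5, had 16, 2, 38 and 0 counts in ENCDC replicates 1 to 4, against 112, 141, 100 and 152 in gut replicates 1 to 4, a log2 fold change of -3.12 (SE 0.88, edgeR adjusted p = 0.0166). *Ntf5* was thus lower in ENCDCs, as were *Bdnf* and *Ntf3*. *Sorcs1*, a relative of sortilin, was the gene called higher, at a log2 fold change of 3.07 (SE 0.48, edgeR adjusted p = 4.87e-04), with 251 counts in ENCDC replicate 3 and 737 to 1001 in the other ENCDC libraries, against 28 to 138 in gut libraries.

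**Figure D4:**
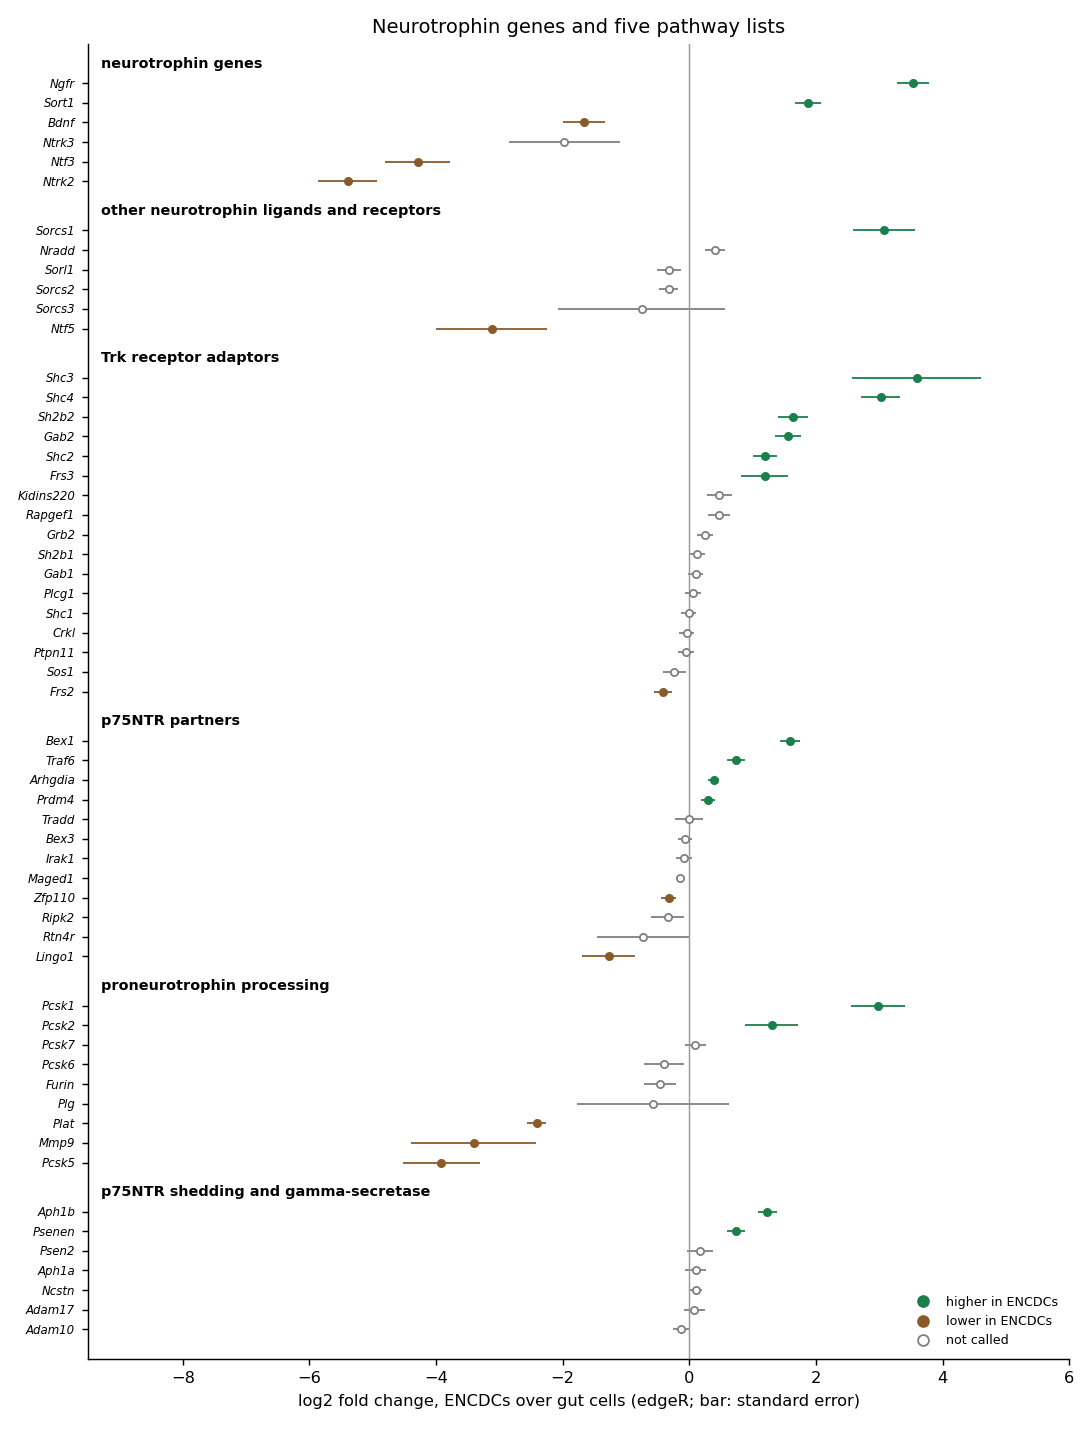
Log2 fold change (ENCDCs over gut cells, edgeR) of the 6 genes and of every tested gene in the 5 pathway lists, with bars of 1 standard error. Filled green points are called higher in ENCDCs, filled brown points are called lower, and open points are not called. The ligand genes *Ntf3*, *Ntf5* and *Bdnf* all lie left of 0, while *Ngfr*, *Sort1* and *Sorcs1* lie right of it.

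Adaptors carry the signal of Trk receptors into the cell. Of 17 adaptor genes, 6 were higher, 1 was lower and 10 were not called, with a median log2 fold change of 0.24. The shares over all tested genes were 17.0% higher and 20.9% lower. *Gab2*, a docking protein, had a log2 fold change of 1.56 (SE 0.20, edgeR adjusted p = 1.24e-04). *Shc2*, an Shc adaptor of the nervous system, had a log2 fold change of 1.195 and *Sh2b2* one of 1.63. At lower mean counts, *Shc4* was higher at 3.02 (SE 0.31, edgeR adjusted p = 2.22e-05) and *Shc3* at 3.59 (SE 1.02, edgeR adjusted p = 0.017). The populations overlapped for *Shc3*, with 5 counts in ENCDC replicate 3 and up to 13 in gut libraries. *Frs3* was also higher, at 1.19 (SE 0.37, edgeR adjusted p = 0.0261), and its populations did not overlap. *Frs2*, which binds the same Trk docking site as Shc, went the other way at -0.42 (SE 0.14, edgeR adjusted p = 0.0336), a call lost when ENCDC replicate 1 or 2 or any 1 gut library was left out (edgeR adjusted p = 0.0569 to 0.0708). These adaptors also serve other receptor tyrosine kinases, Ret among them. *Shc1* (-0.01), *Grb2* (0.24) and *Plcg1* (0.06) were not called.

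p75NTR signals through partners in the membrane and the cytoplasm. Of 12 partner genes, 4 were higher, 2 were lower and 6 were not called, with a median log2 fold change of -0.08. These counts stand beside 17.0% higher and 20.9% lower over all tested genes. *Traf6*, a ubiquitin ligase of the pathway, had a log2 fold change of 0.74 (SE 0.14, edgeR adjusted p = 0.00196), and *Arhgdia*, a GDP dissociation inhibitor that binds p75NTR, had 0.39 (edgeR adjusted p = 0.00572). *Bex1*, with a lower mean count than both, was higher at 1.58 (SE 0.16, edgeR adjusted p = 1.64e-05). *Prdm4* at 0.30 and *Zfp110* at -0.33, both nuclear partners, lost their calls without any 1 library other than ENCDC replicate 1 (edgeR adjusted p = 0.0559 to 0.124 for *Prdm4* and 0.0639 to 0.112 for *Zfp110*). Both also lost them with no filter on low counts (0.076 and 0.0994), and *Prdm4* with DESeq2, with RLE or no factors and with a mean count of at least 10 (adjusted p = 0.0606 to 0.0943). *Lingo1*, a coreceptor, was lower at -1.27 (edgeR adjusted p = 0.0332), with 54, 96, 21 and 90 counts in ENCDC replicates 1 to 4, against 184, 139, 161 and 171 in gut replicates 1 to 4, and lost the call without ENCDC replicate 1 or gut replicate 1, 3 or 4 (edgeR adjusted p = 0.0674 to 0.0776).

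Proneurotrophins are cut by convertases in the cell and by plasmin and matrix proteases outside it. Of 9 such genes with a value, 2 were higher, 3 were lower and 4 were not called, with a median log2 fold change of -0.46. Among all tested genes the shares were 17.0% higher and 20.9% lower. *Plat*, tissue plasminogen activator, had 377, 332, 514 and 349 counts in ENCDC replicates 1 to 4, against 1989, 2107, 2283 and 2276 in gut replicates 1 to 4, a log2 fold change of -2.41 (SE 0.14, edgeR adjusted p = 3.46e-07). *Pcsk5*, a convertase, was lower at -3.92 (SE 0.61), and *Mmp9* at -3.40 (SE 0.99, edgeR adjusted p = 0.0189, but 0.0527 without gut replicate 1 and 0.0507 with DESeq2). *Pcsk1*, a convertase of the regulated secretory route, was higher at 2.98 (SE 0.42, edgeR adjusted p = 2.21e-04), and *Pcsk2* at 1.30, a call lost without ENCDC replicate 1 or 2 or any 1 gut library (edgeR adjusted p = 0.0507 to 0.0838) or with no filter on low counts (0.0513). *Furin*, the general convertase, was not called (-0.46, edgeR adjusted p = 0.177).

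p75NTR is also shed by ADAM proteases and then cut by gamma-secretase. Of 7 genes for these steps, 2 were higher, none was lower and 5 were not called, with a median log2 fold change of 0.10. All tested genes had 17.0% higher and 20.9% lower. *Aph1b* had a log2 fold change of 1.23 (SE 0.15, edgeR adjusted p = 8.89e-05) and *Psenen* 0.74 (edgeR adjusted p = 0.00227), both subunits of gamma-secretase. The sheddases *Adam10* (-0.13) and *Adam17* (0.08) were not called.

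Genes most like each member were taken as the 3 with the highest Pearson r of log2 CPM over the 8 libraries, among 11563 tested genes that averaged 100 counts or more in 1 population. The 8 points fall into the 2 populations, so r mainly reflects the difference between them, and no test was made. *Ngfr* was most like *Rtn1* (r = 0.999), *Dpysl3* and *Cdh2*, and *Sort1* most like *Lama4* (r = 0.992), *Fbxo21* and *Sphkap*. *Ntrk2* was most like *Twist1* (r = 0.999), a mesenchymal transcription factor, then *Serping1* and *Dap*. *Ntf3* was most like *Sfi1* (r = 0.996), *Hoxa7* and *Adamtsl1*, *Bdnf* most like *Def6* (r = 0.997), *Hist1h1c* and *Slc6a9*, and *Ntrk3* most like *Dnajc25* (r = 0.980), *Ebf4* and *Hadh*. Among the 6 genes themselves, r ran from -0.978 for *Ntrk2* with *Sort1* to 0.968 for *Ntrk2* with *Bdnf*.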

How the data were processed

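Reads had been aligned by the authors to mm10 (STAR 2.4.2a) and resampled with PORT. They deposited its minimum normalized read counts, which are whole-number counts per gene with all libraries at nearly 1 depth. The libraries were unstranded and began from 750 pg of RNA. The deposit's design text names small RNAs and CPM, but the values are whole numbers of mRNA reads and were used as counts.

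Counts were compared in R 4.3.3 with edgeR 4.0.16 (TMM factors, quasi-likelihood F test, Benjamini-Hochberg adjustment over all 18866 genes tested, threshold 0.05). The fold change is ENCDCs over gut cells. Limma 3.58.1 (voom) and DESeq2 1.42.0 were alternatives, with RLE or no factors, other count filters, a replicate block, each library left out and a null of a 2-fold change. The fit was tested on simulated data. The 6 genes and all lists were chosen with earlier results of these data known. Named genes were the 6, up to 4 called genes per list with the highest mean count, genes called against most of their list, and the 3 most alike. Other genes named, such as those not called, were chosen after their values were seen. Gene models were GENCODE M21 (mm10), and Python 3.11.15 (pandas 2.3.3) joined the tables. *Mmp3* and *Mmp7* were not used here, and some genes of the lists are not reported here or counted. smRNA-seq was not analysed here.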

Additional observations from a re-analysis of the deposited data

How the results depend on the processing

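Over 16 alternatives, *Ngfr*, *Sort1*, *Ntrk2* and *Ntf3* kept their direction and call, with log2 fold changes of 3.45 to 3.65, 1.65 to 2.03, -5.85 to -5.03 and -4.87 to -3.93. *Bdnf* kept its direction at -1.91 to -1.54 and lost its call only in the test against a 2-fold change (-1.66, adjusted p = 0.0557). *Ntrk3* was called with voom and limma (-2.88, adjusted p = 0.0288) and without ENCDC replicate 3, and leaving out 1 library at a time gave -2.88 to -1.56. Its adjusted p ran from 0.017 to 0.322 over the alternatives. The cause was not tested. The test against a 2-fold change called 983 genes higher and 2031 lower. All other settings called 2609 to 3527 higher and 3280 to 4353 lower. *Bex1*, *Frs3*, *Shc3* and *Shc4* were not looked at over the alternatives. Of the other pathway genes named, *Aph1b*, *Arhgdia*, *Frs2*, *Lingo1*, *Mmp9*, *Ntf5*, *Pcsk2*, *Prdm4*, *Psenen*, *Shc2*, *Traf6* and *Zfp110* lost their calls in the test against a 2-fold change.

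Pairing by replicate number was not seen in the counts. Small correlations cannot show whether same-numbered libraries came from the same embryos, because noise between libraries can hide a shared source. Same-numbered libraries had correlations of their deviations of 0.00451, 0.0378, -0.0294 and -0.0436 over 13825 genes, and not every library correlated best with its own number. With a replicate block, the log2 fold changes were 3.53 for *Ngfr*, 1.85 for *Sort1*, -5.50 for *Ntrk2*, -2.38 for *Ntrk3*, -1.71 for *Bdnf* and -4.51 for *Ntf3*, and no call among these genes changed. Of the pathway genes looked at over the alternatives, *Prdm4* (adjusted p = 0.109) and *Zfp110* (adjusted p = 0.09) lost their calls with the block. Counts of 0 to 34 in ENCDC libraries limit the precision for *Ntrk2*, *Ntrk3* and *Ntf3*.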
